A study of Arabidopsis thaliana with 12 samples.

Results

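The interaction of the brm-1 and ga1-3 mutations was measured probe set by probe set in shoots of Arabidopsis thaliana. For each probe set the interaction term was the mean of the double mutant ga1-3/brm-1, minus the mean of brm-1, minus the mean of ga1-3, plus the mean of the wild type, on the log2 scale. The term is 0 where the double mutant carries the sum of both single-mutant changes, positive where it lies above that sum and negative where it lies below. All 16764 probe sets of the table that are not Affymetrix controls have a term, out of 16824 in all, and the term used all 12 arrays of the series.

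BRM is the ATPase of SWI/SNF complexes, which use ATP to move or evict nucleosomes and so open or close promoters. Gibberellins (GA) are growth hormones. They bind GID1 receptors, which brings about the destruction of the DELLA repressors, and with little GA the DELLA proteins persist and hold back stem growth, leaf expansion and flowering. The ga1-3 mutation blocks an early step of GA synthesis, and brm-1 is a null allele of BRM. If a gene is reached by both regulators, its response to one mutation can depend on whether the other is present.

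The groups were ga1-3/brm-1, brm-1, ga1-3 and the wild type, each with 3 biological replicates on ATH1 arrays. All were Col-0 seedlings, 18 days old, grown on Murashige and Skoog medium with sucrose, and only the shoots were taken. The ga1-3 line had been introgressed into Col-0, so DNA from the donor line that stayed beside the mutation cannot be told apart from the mutation itself in ga1-3 and ga1-3/brm-1. Seeds with the ga1-3 background were imbibed in GA3 before sowing, whereas brm-1 homozygotes are sterile and were picked by genotyping from segregating progeny. A linear model per probe set (limma, genotype as the only term) gave each term a standard error and a Benjamini-Hochberg adjusted p over the 16764 probe sets, and a term was called at an adjusted p under 0.05.

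The BRM transcript was checked first. Its probe set had log2 signals of 2.72, 3.01 and 2.92 in ga1-3/brm-1, 2.78, 3.01 and 2.87 in brm-1, 8.28, 8.22 and 7.93 in ga1-3 and 7.94, 7.87 and 7.84 in the wild type. Both lines with brm-1 lay near background, taken here as a genotype mean below 4.70, and their interaction term of -0.27 ± 0.16 (standard error) was not called (adjusted p = 0.34). GA1 was not analysed here. Genes of the photosynthetic leaf (RBCS, LHCB and CAB, 5 probe sets) were the brightest marker list, with summed signals of 35300 to 40500 in ga1-3/brm-1, 38000 to 51000 in brm-1, 44600 to 50900 in ga1-3 and 52100 to 54600 in the wild type. The list taken as root markers (7 probe sets, none near background in any genotype, PYK10 and GER3 the brightest) summed to 9300 to 11900 in ga1-3/brm-1, 3660 to 6290 in brm-1, 4830 to 8000 in ga1-3 and 1760 to 2890 in the wild type. No root sample was on the arrays, so whether these transcripts, GER3 among them, mark root tissue was not tested. None of the 7 had a called interaction, and their part in the results was not tested. In whole shoots, fewer cells of a type and less RNA per cell cannot be told apart. One array stood apart: on the main axis of variation within genotypes brm-1 replicate 3 scored -37.8, the other brm-1 arrays 20 and 17.8, and the remaining 9 arrays -6.99 to 9.8.

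Interaction was called for 1492 of 16764 probe sets (8.9%), with 741 positive terms (4.42%) and 751 negative terms (4.48%). The number with an unadjusted p under 0.05 was 4265. Single-mutant changes, called at the same adjusted p and a fold change over 1.5, were found for 2459 probe sets in brm-1 (14.7%) and 1474 in ga1-3 (8.79%). Over all probe sets the median term was -0.0424 and its median standard error 0.201. Terms reached further on the positive side, with called values between -3.65 (AIG1) and 6.3 (a probe set with no gene name here), and the median size of a called term was 1.16 for positive and 0.768 for negative ones. The plot of the double mutant against the additive expectation shows the positive calls as a cloud that rises above the line where the single mutants sum to about 0, and as a second arm where both single mutants were far below the wild type.

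**Figure D1:**
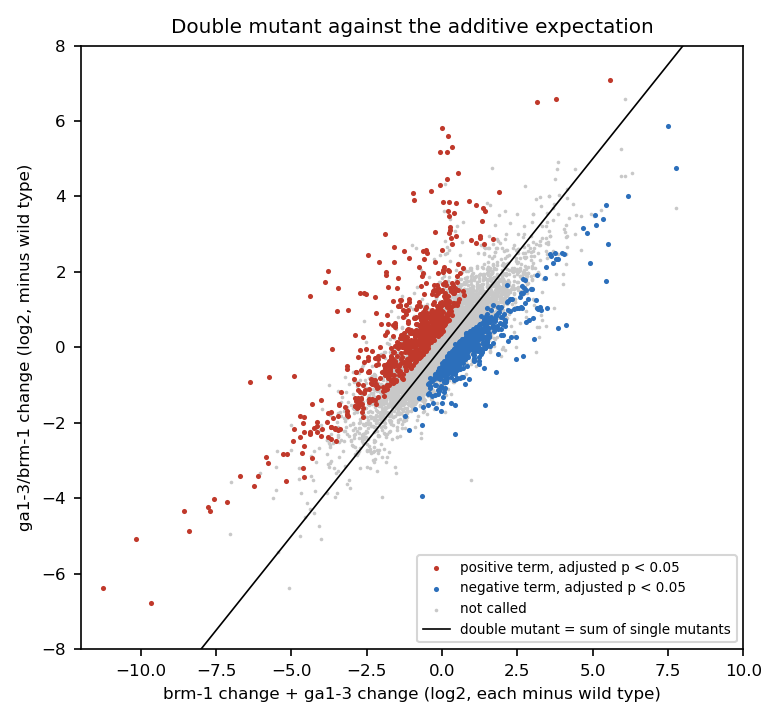
Each point is 1 probe set. The x axis is the sum of the brm-1 and ga1-3 changes and the y axis the ga1-3/brm-1 change, all as log2 differences from the wild type. Points on the line have a term of 0, the 741 positive calls (red) lie above it and the 751 negative calls (blue) below it.

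Genes that neither single mutant moved held the most calls, but at the lowest share of any class. Of 13481 probe sets called in neither single mutant (80.4% of all), 848 had a called term, 399 positive and 449 negative. That is 6.29%, against 8.9% over all probe sets, and 56.8% of all calls. Where only brm-1 moved, 168 of 1809 were called (9.29%, 85 positive and 83 negative), and where only ga1-3 moved, 235 of 824 (28.5%, 102 positive and 133 negative). Where both single mutants were lower than the wild type, 148 of 334 had a positive term and none a negative one. Where both were higher, 73 of 225 had a negative term and none a positive one. In the 91 probe sets that the single mutants moved in opposite directions, 7 terms were positive and 13 negative. The wild-type arrays enter the term and both single-mutant changes, so the signs in the last classes are partly built in, and the counts are given as a description. "Neither moved" also depends on the threshold. With single mutants called at an unadjusted p under 0.05, 303 calls stayed among 8751 unmoved probe sets (202 positive and 101 negative). These were 20.3% of all calls.

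**Figure D2:**
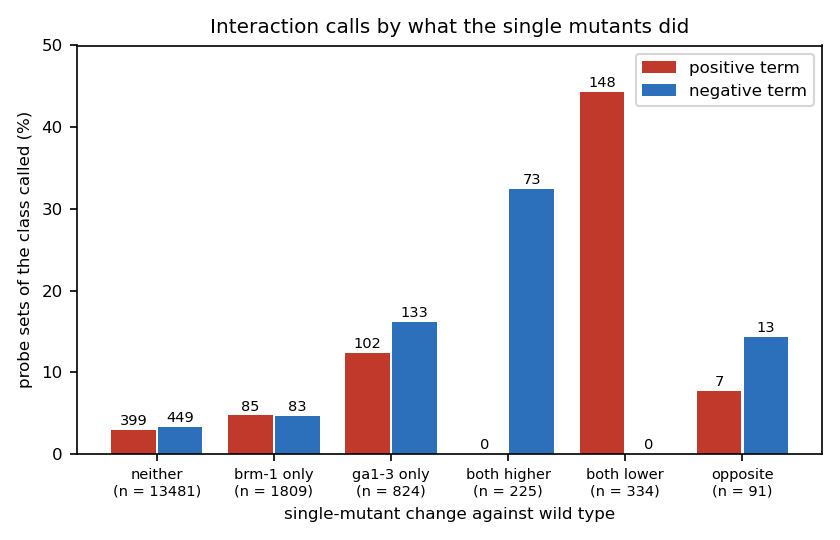
Bars give the share of each class with a positive (red) or negative (blue) interaction call, in percent, and the number above each bar is the count of probe sets. The class with neither single mutant moved holds the most calls (399 and 449) at the lowest share, and both lower (148 positive) and both higher (73 negative) each hold a single sign.

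The shape behind a call differed between classes. Among the 399 positive calls with neither single mutant moved, ga1-3/brm-1 was called higher than the wild type in 208 and lower in none. In 79 of the 399 both single mutants and the wild type lay near background, and in 40 of these 79 the double mutant lay above it. Among the 449 negative calls of this class the double mutant was called lower than the wild type in 78 and not called in 371. In 424 of them no genotype was near background, and the median term was -0.649. The both-lower class was different again. In 62 of its 148 positive calls all 3 mutants lay near background, and in 100 the double mutant was called different from neither single mutant. A sum of 2 deep falls can also pass below what the array can show. The additive expectation lay below 4.70 for 97 of these 148, and for 32 it was under the lowest signal of the table, 1.18. A term of 0 could not have been measured for these 32. Of all 741 positive calls, 485 had an expectation at or above 4.70.

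Many genes that respond to low oxygen had positive terms. Of 20 probe sets of the hypoxia list 12 had a positive term and 1 a negative one, with a median term of 1.90, against 4.42% and 4.48% over all probe sets. This list, like the others, was chosen with earlier results of these data known, so its count is a description. Among the 13 members that neither single mutant moved, 9 were positive. AT2G17850, a rhodanese-type protein gene, had log2 signals of 9.93, 7.19 and 7.20 in ga1-3/brm-1, 2.29, 2.26 and 2.20 in brm-1, 2.27, 2.25 and 2.38 in ga1-3 and 2.27, 2.27 and 2.30 in the wild type. Only the double mutant left background, with a term of 5.84 ± 0.81 (adjusted p = 0.00379). AT3G29970 had 9.47, 7.50 and 7.61 in ga1-3/brm-1, 2.64, 2.84 and 2.61 in brm-1, 2.67, 2.53 and 2.83 in ga1-3 and 2.54, 2.53 and 2.69 in the wild type, and a term of 5.40 ± 0.58 (adjusted p = 0.0019). Here too the double mutant stood clear of 9 arrays at background. AT5G66985 (4.98 ± 0.82), AT4G33560 (4.35 ± 0.64) and AT3G10040, a trihelix-type transcription factor gene (2.86 ± 0.50), had the same pattern. The highest array in each of these 5 genes was ga1-3/brm-1 replicate 1.

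In AT5G10040 that array mattered most. Its log2 signals were 9.06, 5.61 and 5.38 in ga1-3/brm-1, 2.87, 2.86 and 2.76 in brm-1, 2.81, 2.76 and 2.93 in ga1-3 and 2.79, 2.76 and 2.93 in the wild type. The groups did not overlap, yet the term of 3.84 ± 1.05 (adjusted p = 0.0482) kept its call in 3 of the 12 fits on 11 arrays, which put it between 2.65 and 4.49. Without ga1-3/brm-1 replicate 1 the list had 9 positive members and a median of 1.63. Each wild-type array, ga1-3 replicate 1, ga1-3 replicate 2 and brm-1 replicate 1 left 7 positive members when left out, and brm-1 replicate 3 left 8, with the medians between 1.63 and 2.08. The member with a negative term, AT3G10020 (-1.0), kept its call in all 12 fits. PDC2, a pyruvate decarboxylase of fermentation (0.58), and ERF73, a hypoxia-induced factor (0.93), were not called.

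Genes with the same shape were found outside the list. AT4G27654 had 8.65, 7.22 and 7.84 in ga1-3/brm-1, 2.73, 2.68 and 2.73 in brm-1, 2.75, 2.42 and 2.82 in ga1-3 and 2.68, 2.72 and 2.75 in the wild type. It was near background in all arrays but those of the double mutant, and its term was 5.24 ± 0.39 (adjusted p = 0.000221). AT4G29780 lay close to the near-background level outside the double mutant, with 9.47, 8.10 and 9.27 in ga1-3/brm-1, 4.70, 4.66 and 4.8 in brm-1, 4.38, 4.73 and 4.48 in ga1-3 and 4.41, 4.74 and 5.28 in the wild type. Again the double mutant alone was high (term 4.51 ± 0.45, adjusted p = 0.00122). Both calls held with any single array left out.

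**Figure D3:**
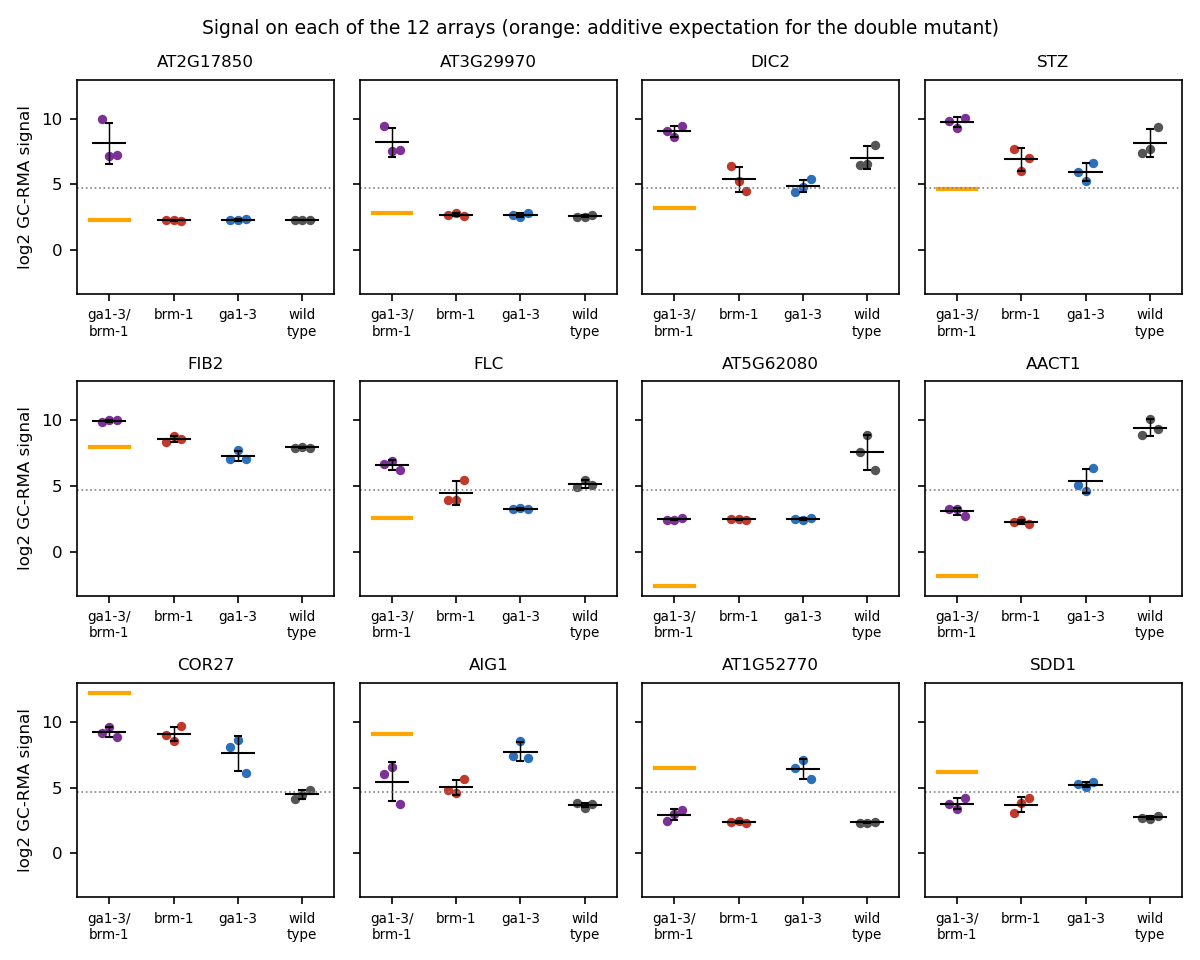
Log2 GC-RMA signal (y axis) of 12 genes on each array, with points for arrays, black bars for the mean and SD of 3 arrays, an orange line for the additive expectation and a dotted line at the near-background level of 4.70. AT2G17850 and AT3G29970 left background in ga1-3/brm-1 only, DIC2, STZ and FLC fell below the wild type in ga1-3 but not in the double mutant, AT5G62080 and AACT1 have an expectation below 0, and COR27 (lower row) lay in the double mutant at the level of brm-1.

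Genes of the rapid stress response had many of the largest positive terms, and most of them had moved in a single mutant. These are transcripts that wounding, touch, calcium influx or elicitors raise within minutes. The list was put together after the values were seen, so its count is a description. Of 17 members 13 had a positive term (76.5%, against 4.42% over all probe sets) and none a negative one. All 17 terms were above 0, and the median was 2.21. By class, 5 of 5 members moved in ga1-3 only, 4 of 5 lower in both single mutants, 3 of 4 moved in brm-1 only and 1 of 3 moved in neither were positive. With 1 array left out, 10 to 13 members were positive.

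DIC2, a mitochondrial dicarboxylate carrier, had the largest of these terms. Its log2 signals were 9.06, 8.60 and 9.45 in ga1-3/brm-1, 6.38, 5.24 and 4.49 in brm-1, 4.44, 4.77 and 5.39 in ga1-3 and 6.49, 6.53 and 8.01 in the wild type. Each single mutation lowered DIC2 and the 2 together raised it above every wild-type array, with a term of 5.81 ± 0.73 (adjusted p = 0.00301). STZ, a zinc-finger repressor of stress genes, had 9.84, 9.28 and 10.07 in ga1-3/brm-1, 7.68, 5.98 and 7.03 in brm-1, 5.94, 5.25 and 6.62 in ga1-3 and 7.39, 7.70 and 9.35 in the wild type. Its double-mutant arrays overlapped the highest wild-type array, and its term was 5.05 ± 0.80 (adjusted p = 0.00689). CML38, a calmodulin-like calcium sensor, had 10.83, 9.74 and 9.93 in ga1-3/brm-1, 8.16, 7.22 and 7.28 in brm-1, 5.79, 6.05 and 6.66 in ga1-3 and 7.27, 7.47 and 9.0 in the wild type. Wild-type replicate 3 was the highest wild-type array in DIC2, STZ and CML38, and their calls held without it.

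CAF1b, a deadenylase that shortens mRNA tails, had 7.53, 6.96 and 7.61 in ga1-3/brm-1, 4.86, 4.38 and 4.35 in brm-1, 3.8, 4.23 and 4.28 in ga1-3 and 4.81, 5.13 and 5.41 in the wild type. Its groups were tight, and the term of 3.85 ± 0.32 had an adjusted p of 0.000351. WRKY53, a transcription factor of defence and senescence, had 7.87, 7.06 and 6.69 in ga1-3/brm-1, 6.55, 5.28 and 5.68 in brm-1, 4.8, 5.26 and 4.91 in ga1-3 and 7.16, 7.37 and 7.19 in the wild type. Both single mutants lay below the wild type and the double mutant around it (term 3.62 ± 0.48, adjusted p = 0.00324). The ubiquitin ligases PUB23 (4.45 ± 0.65) and PUB22 (3.12 ± 0.55) were lower in ga1-3 and not in ga1-3/brm-1, and RBOHD, the NADPH oxidase of the oxidative burst, was lower in brm-1 and not in ga1-3/brm-1 (2.15 ± 0.43). ORA47, an AP2/ERF factor of the wound response, had a term of 3.19 ± 0.85 that was called in 2 of the 12 fits.

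A related gene, AT2G22880 (a VQ-motif protein), had 8.71, 6.92 and 8.03 in ga1-3/brm-1, 5.76, 4.81 and 6.26 in brm-1, 3.06, 2.68 and 2.68 in ga1-3 and 6.0, 5.75 and 6.71 in the wild type. The ga1-3 mutation took it to background where BRM was present and raised it where BRM was absent (term 5.63 ± 0.66, adjusted p = 0.00221). AT4G39675 had 9.29, 7.42 and 7.52 in ga1-3/brm-1, 3.98, 3.98 and 3.44 in brm-1, 4.74, 4.91 and 6.19 in ga1-3 and 7.32, 6.32 and 6.53 in the wild type. There brm-1 lowered the signal with GA1 intact and raised it in the ga1-3 background (term 5.72 ± 0.74, adjusted p = 0.00316).

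Genes of the nucleolus, where ribosomal RNA is made and ribosomes are assembled, had smaller terms of 1 sign. This list too was put together after the values were seen. All 23 members had a term above 0, with a median of 0.85. Terms called positive numbered 15 (65.2%, against 4.42% over all probe sets), and none was called negative. Of the 15, 12 were called in every fit with 1 array left out. Neither single mutant moved 19 of the 23, and 11 of these 19 were positive. With 1 array left out, 12 to 18 members were positive, the most without brm-1 replicate 3.

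FIB2, a fibrillarin that methylates ribosomal RNA, had 9.86, 10 and 10.03 in ga1-3/brm-1, 8.38, 8.82 and 8.59 in brm-1, 7.05, 7.70 and 7.09 in ga1-3 and 7.90, 7.99 and 7.90 in the wild type. It was lowered by ga1-3 in plants with BRM and raised by ga1-3 in plants without it, with a term of 2.02 ± 0.24 (adjusted p = 0.00224). WDR55, a WD40-repeat protein, had 7.72, 7.82 and 7.88 in ga1-3/brm-1, 6.49, 6.78 and 6.87 in brm-1, 5.6, 6.27 and 5.99 in ga1-3 and 6.92, 7.17 and 6.71 in the wild type (term 2.07 ± 0.25, adjusted p = 0.00242). AT3G06530, which neither single mutant moved, had 7.56, 7.82 and 7.80 in ga1-3/brm-1, 6.71, 6.93 and 6.84 in brm-1, 6.31, 6.29 and 6.61 in ga1-3 and 6.93, 6.62 and 6.88 in the wild type. In these 3 genes every double-mutant array lay above every array of the other genotypes. AT4G26600, an RNA methyltransferase-type gene (1.32 ± 0.22), and AT3G10530, a WD-repeat gene (1.43 ± 0.20), were alike. The large subunits of RNA polymerase I, NRPA1 (0.85) and NRPA2 (0.78), were called too, but in 2 and 4 of the 12 fits. HDT4, a plant-type histone deacetylase of the nucleolus, had a term of 1.06 ± 0.18.

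Proteins of the ribosome itself had smaller terms. Of 24 cytosolic ribosomal protein genes 3 had a positive term (12.5%, against 4.42% over all probe sets) and 1 a negative one (4.17%, against 4.48%). The median was 0.20, with values between -0.66 (RPL18AA) and 0.70 (RPL23AB). Without ga1-3 replicate 1, wild-type replicate 2 or ga1-3/brm-1 replicate 3 no member was positive, and 1 was without any other array except ga1-3/brm-1 replicate 2 (2) and brm-1 replicate 3 (3).

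**Figure D4:**
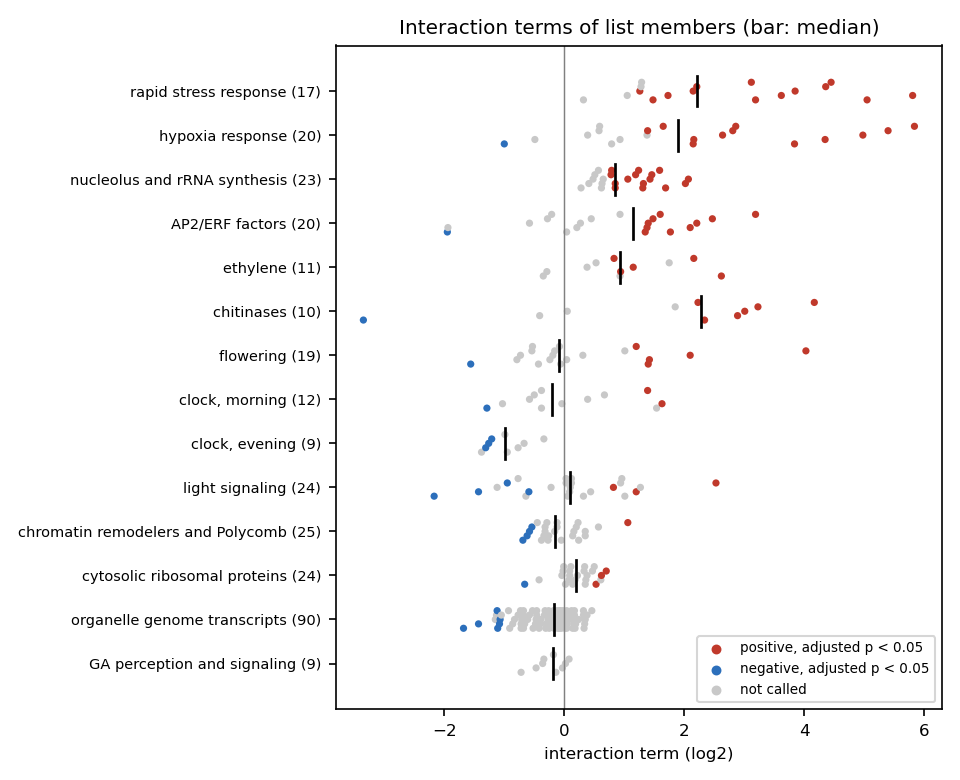
Interaction terms (x axis, log2) of the members of 14 gene lists, with the number tested in brackets, red for positive calls, blue for negative calls, grey for terms not called and a black bar for the median. Rapid stress response and nucleolus lie right of 0, as do 18 of 20 hypoxia terms, and the evening clock genes left of it, whereas GA perception holds no call.

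AP2/ERF transcription factors, a family that holds many ethylene and stress regulators, had 10 positive terms and 1 negative among 20 tested (median 1.14). Over all probe sets 4.42% had a positive term and 4.48% a negative one. The array's annotation named 3 of the 20, 1 of them positive, and the paper's called genes the rest. Of the 10 positive members, 4 were lower than the wild type in both single mutants, where the positive sign is partly built in. The family's count was lower in every fit with 1 array left out, at 2 to 9 positive members. It was 2 without ga1-3 replicate 1, ga1-3 replicate 2, ga1-3/brm-1 replicate 1 or brm-1 replicate 1. It was 3 without wild-type replicate 2, wild-type replicate 3, ga1-3/brm-1 replicate 3 or brm-1 replicate 2. Without wild-type replicate 1 the count was 5 and without ga1-3/brm-1 replicate 2 it was 6. ERF4, an ethylene-response repressor (2.21), and RAV2, a repressor of flowering (2.10 ± 0.38), kept their calls in every fit. RAP2.10 was the negative member, with 4.66, 5.41 and 4.38 in ga1-3/brm-1, 6.34, 5.87 and 6.27 in brm-1, 6.49, 7.05 and 7.28 in ga1-3 and 6.25, 6.06 and 6.70 in the wild type (term -1.95 ± 0.41, adjusted p = 0.0194).

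Among genes of ethylene synthesis and perception 5 of 11 had a positive term (45.5%, against 4.42% over all probe sets) and none a negative one (median 0.93). Of these 5, 4 were lower than the wild type in both single mutants. The array's annotation named 1 of the 11, which was not called, and the paper's called genes the rest. Over all probe sets named through the paper 9.43% had positive terms. ACS8, an enzyme that makes the ethylene precursor, had 5.86, 4.39 and 5.17 in ga1-3/brm-1, 5.04, 5.32 and 5.21 in brm-1, 4.35, 4.07 and 5.04 in ga1-3 and 6.98, 7.05 and 7.43 in the wild type. All 3 mutants overlapped each other below the wild type, so the fall was no deeper with both mutations (term 2.62 ± 0.48, adjusted p = 0.0119). The receptor genes ETR2 (2.16 ± 0.52) and ERS2 (0.94) were in the same class, and ETR2 was called in 5 of the 12 fits. Without wild-type replicate 3 or brm-1 replicate 1 the list had 3 positive members.

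Chitinases, which cut fungal cell walls, were chosen after the values were seen, so their count is a description. Of 10 members 6 were positive and 1 negative, against 4.42% and 4.48% over all probe sets. HCHIB, the basic chitinase, had 7.49, 7.06 and 7.22 in ga1-3/brm-1, 4.85, 3.52 and 3.12 in brm-1, 7.17, 6.4 and 7.80 in ga1-3 and 6.79, 7.54 and 6.45 in the wild type. It fell in brm-1 with GA1 intact and lay with the wild type in the double mutant (term 3.23 ± 0.66, adjusted p = 0.0176). AT4G16260, a glucanase-type gene, was alike, with a term of 4.95 ± 1.02 and brm-1 arrays spread from 2.48 to 6.08. The count of positive chitinases was 3 without wild-type replicate 2, ga1-3 replicate 1 or ga1-3/brm-1 replicate 1, and 4 without wild-type replicate 3. The negative member, CHI (-3.35 ± 0.91, adjusted p = 0.0466), was called in 1 of the 12 fits. PS2, a phosphatase of phosphate starvation, had a term of 5.48 ± 1.44 that was called in 2 of the 12 fits, and its brm-1 arrays (7.51, 3.32 and 4.01) disagreed most.

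Flowering regulators had 5 positive terms (26.3%, against 4.42% over all probe sets) and 1 negative (5.26%, against 4.48%) among 19. The array's annotation named 4 of the 19, none of them called, and the paper's called genes the rest. FLC, the MADS-box repressor of flowering, had 6.70, 6.89 and 6.19 in ga1-3/brm-1, 3.93, 3.97 and 5.49 in brm-1, 3.23, 3.31 and 3.23 in ga1-3 and 4.92, 5.49 and 5.05 in the wild type. Thus ga1-3 lowered FLC to background where BRM was present, and every double-mutant array lay above every other array (term 4.03 ± 0.52, adjusted p = 0.00315, called in all 12 fits). CO, the photoperiod activator of flowering, had 5.69, 5.16 and 5.45 in ga1-3/brm-1, 3.72, 4.38 and 4.35 in brm-1, 2.74, 2.52 and 2.66 in ga1-3 and 2.47, 2.64 and 2.56 in the wild type. brm-1 raised CO and ga1-3 alone did not, yet with both it was higher than in brm-1 (term 1.20 ± 0.26, adjusted p = 0.0216). Only the double-mutant mean of CO was above the near-background level, so the rise in brm-1 alone lay below it. The negative member was SPL4, a promoter of the floral transition (-1.56 ± 0.40, called in 2 fits). The median of the list was -0.08, and without ga1-3 replicate 1 or wild-type replicate 2 it had 3 positive members.

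Falls that both single mutants shared made up many of the large positive terms of the both-lower class. AT5G62080, a lipid-transfer type protein gene, had 2.45, 2.45 and 2.53 in ga1-3/brm-1, 2.51, 2.50 and 2.43 in brm-1, 2.51, 2.40 and 2.55 in ga1-3 and 7.61, 8.87 and 6.20 in the wild type. Signal was present in the wild type only, and either mutation alone took it to background. Its additive expectation of -2.59 lay below any signal in the table, so its term of 5.07 ± 0.68 (adjusted p = 0.00362) could not have been near 0. AACT1, an acyltransferase, had 3.22, 3.25 and 2.75 in ga1-3/brm-1, 2.25, 2.38 and 2.14 in brm-1, 5.09, 4.60 and 6.4 in ga1-3 and 8.87, 10.13 and 9.32 in the wild type. Its expectation was -1.83, and the double mutant was near background, with a difference from brm-1 of 0.82 that was not called (adjusted p = 0.231). The peroxidase gene AT1G44970 (expectation -1.86), DIR5, a dirigent protein gene (-1.03), DOG1, the seed dormancy gene (-0.42), and AT1G66100, a thionin gene (-0.22), had expectations under 1.18 as well. ARGOS, which promotes organ growth, had 3.42, 3.13 and 3.00 in ga1-3/brm-1, 3.71, 3.63 and 3.12 in brm-1, 3.04, 2.95 and 3.82 in ga1-3 and 6.35, 6.10 and 6.34 in the wild type, again with signal in the wild type only. Its homolog ARL stayed measurable, with 8.85, 8.58 and 8.73 in ga1-3/brm-1, 9.17, 8.85 and 8.13 in brm-1, 6.98, 6.90 and 9.03 in ga1-3 and 10.36, 10.76 and 10.50 in the wild type. For ARL the term of 2.90 ± 0.69 (adjusted p = 0.0289) was called in 5 of the 12 fits, and ga1-3 replicate 3 lay apart from the other ga1-3 arrays.

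Negative terms were smaller, and few of the gene lists gathered them. The largest stable one with only ga1-3 moved was AT1G52770, a gene of the NPH3 family of phototropic-response proteins, with 2.50, 3.02 and 3.32 in ga1-3/brm-1, 2.42, 2.49 and 2.34 in brm-1, 6.46, 7.13 and 5.65 in ga1-3 and 2.35, 2.35 and 2.39 in the wild type. It was raised by ga1-3 only where BRM was present (term -3.51 ± 0.44, adjusted p = 0.00293). AIG1, a GTPase gene induced by bacterial effectors, had 6.06, 6.55 and 3.76 in ga1-3/brm-1, 4.8, 4.63 and 5.68 in brm-1, 7.42, 8.56 and 7.26 in ga1-3 and 3.8, 3.48 and 3.77 in the wild type. Its double-mutant arrays scattered: replicates 1 and 2 lay above every brm-1 and wild-type array, and replicate 3 among those of the wild type. The term of AIG1, -3.65 ± 0.89 (adjusted p = 0.0328), was called in 5 of the 12 fits. NUDT6, a Nudix hydrolase of salicylate signalling, was likewise highest in ga1-3 (-2.83 ± 0.64, 7 fits).

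GLYI7, a glyoxalase, was lowest in the double mutant. It had 3.55, 4.14 and 3.76 in ga1-3/brm-1, 7.15, 5.10 and 5.05 in brm-1, 9.17, 9.40 and 8.68 in ga1-3 and 7.82, 7.53 and 7.93 in the wild type. With GA1 intact brm-1 lowered it, and in the ga1-3 background the fall went to background (term -3.27 ± 0.67, adjusted p = 0.0175, called in all 12 fits). AT3G53250 had 3.28, 3.30 and 3.40 in ga1-3/brm-1, 7.09, 6.31 and 6.45 in brm-1, 3.10, 3.05 and 3.25 in ga1-3 and 3.84, 4.05 and 4.07 in the wild type. It was raised by brm-1 only with GA1 intact (term -2.43 ± 0.25, adjusted p = 0.00122). CYP706A3, a cytochrome P450 gene (-1.78 ± 0.40, called in 6 fits), and WSD1, a wax ester synthase gene (-2.91 ± 0.77, called in 2 fits), also lay near background in every genotype but brm-1.

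A pair of genes known from stomata, the pores of the leaf, were higher in both single mutants without summing in the double. ALMT12, an anion channel of guard cells, had 6.80, 7.10 and 7.45 in ga1-3/brm-1, 6.52, 6.92 and 6.79 in brm-1, 7.76, 7.75 and 8.29 in ga1-3 and 5.22, 4.79 and 4.65 in the wild type. In the ga1-3 background brm-1 lowered ALMT12, whereas with GA1 intact it raised it (term -2.68 ± 0.30, adjusted p = 0.00218). SDD1, a protease that limits stomatal density, had 3.75, 3.39 and 4.19 in ga1-3/brm-1, 3.06, 3.85 and 4.21 in brm-1, 5.28, 5.03 and 5.41 in ga1-3 and 2.69, 2.65 and 2.86 in the wild type (term -2.43 ± 0.39, adjusted p = 0.0069). Only the ga1-3 mean of SDD1 was above the near-background level. Both were singled out after their values were seen, and both calls held in all 12 fits.

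Evening genes of the circadian clock had terms below 0 throughout. Of 9 tested, 3 were called negative (33.3%, against 4.48% over all probe sets) and none positive, and the median was -0.99. Both single mutants were higher than the wild type in 5 of the 9 and in 2 of the 3 called. In that class the negative sign is partly built in. The array's annotation named 1 of the 9, which was not called, and the paper's called genes the rest. ELF4-L4 had 7.14, 7.26 and 7.21 in ga1-3/brm-1, 7.82, 7.98 and 7.42 in brm-1, 7.31, 7.62 and 7.76 in ga1-3 and 6.63, 6.71 and 7.01 in the wild type. Each single mutant exceeded the double mutant, which in turn lay above the wild type (term -1.31 ± 0.23, adjusted p = 0.0103). The differences of the double mutant from brm-1 (-0.53), ga1-3 (-0.35) and the wild type (0.42) were not called. ELF4-L3 (-1.26 ± 0.21) was called in all 12 fits and TOC1, the evening repressor of morning genes, in 2 (-1.21 ± 0.33). With 1 array left out 2 to 4 evening genes were negative: 3 without wild-type replicate 1 or brm-1 replicate 2, 4 without ga1-3 replicate 3 or brm-1 replicate 3, and 2 without any other array. Of 12 morning genes 2 were called positive (16.7%, against 4.42% over all probe sets) and 1 negative (8.33%, against 4.48%). The positive ones, CCA1 (1.63 ± 0.39, called in 5 fits) and RVE1 (1.39 ± 0.29), were lower than the wild type in both single mutants. PRR5 (-1.29 ± 0.29, called in 6 fits) was the negative one. From 1 to 3 morning genes were positive with 1 array left out: 3 without ga1-3/brm-1 replicate 1 or 2, and 1 without brm-1 replicate 1 or 2, ga1-3 replicate 1 or 2, or wild-type replicate 1 or 3. None was negative without ga1-3/brm-1 replicate 1, brm-1 replicate 1, ga1-3 replicate 1 or 2, or wild-type replicate 1 or 3, whereas 2 were without ga1-3/brm-1 replicate 3 and 3 without brm-1 replicate 3. COR27, a cold- and clock-regulated gene, had 9.19, 9.65 and 8.87 in ga1-3/brm-1, 8.99, 8.58 and 9.68 in brm-1, 8.11, 8.65 and 6.13 in ga1-3 and 4.16, 4.45 and 4.83 in the wild type. The double mutant lay at the level of brm-1 (term -2.99 ± 0.78, adjusted p = 0.0402, called in 2 fits). AT4G33980 had 8.36, 8.80 and 8.47 in ga1-3/brm-1, 8.56, 8.42 and 8.31 in brm-1, 8.69, 8.96 and 8.36 in ga1-3 and 5.10, 6.36 and 5.96 in the wild type. All 3 mutants shared 1 level above the wild type (term -2.75 ± 0.39, adjusted p = 0.00432, called in all 12 fits).

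Light signalling genes held both signs, with 3 positive and 4 negative terms among 24 (1 to 4 and 1 to 5 with 1 array left out). These shares were 12.5% and 16.7%, against 4.42% and 4.48% over all probe sets. The array's annotation named 2 of the 24, none of them called, and the paper's called genes the rest. COL2, a CONSTANS-like gene, was positive (2.53 ± 0.46) and its relatives COL9 (-2.17 ± 0.56, called in 3 fits) and COL5 (-0.95) negative. PAR1, a shade-avoidance repressor that neither single mutant moved, had 7.86, 8.01 and 7.74 in ga1-3/brm-1, 9.31, 9.34 and 8.56 in brm-1, 8.78, 8.73 and 9.27 in ga1-3 and 8.53, 8.64 and 8.91 in the wild type. Every double-mutant array lay below every other array (term -1.43 ± 0.31, adjusted p = 0.0214). TED6, a gene of vessel cell walls, had 6.86, 6.43 and 7.07 in ga1-3/brm-1, 8.50, 8.10 and 7.71 in brm-1, 7.57, 7.76 and 7.87 in ga1-3 and 7.47, 7.78 and 7.47 in the wild type, and a term of -1.48 ± 0.30 (adjusted p = 0.0162).

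Transcripts of the organelle genomes had 6 negative terms and no positive one among 90, with a median of -0.18. The negative share of 6.67% was near the 4.48% over all probe sets. All 6 were plastid genes that brm-1 had moved and ga1-3 had not: ycf3 (-1.68 ± 0.25), rpl20 (-1.43 ± 0.30), ndhE (-1.12), rpoC2 (-1.11), rps2 (-1.08) and psbB (-1.07). ycf3, an assembly factor of photosystem I, had 8.0, 8.17 and 8.09 in ga1-3/brm-1, 9.42, 9.51 and 9.25 in brm-1, 8.17, 7.79 and 8.44 in ga1-3 and 7.44, 8.0 and 7.84 in the wild type. brm-1 raised it with GA1 intact, and the double mutant overlapped ga1-3. With 1 array left out 2 to 9 were negative, fewest without ga1-3 replicate 1 and most without ga1-3 replicate 2. The count was 3 without wild-type replicate 1, wild-type replicate 2, ga1-3/brm-1 replicate 3 or brm-1 replicate 1.

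Genes of chromatin remodeling and Polycomb, most of them not part of the BRM complex, had terms between -0.69 and 1.06. Among 25 chromatin remodeler and Polycomb genes the only positive term was that of HDT4, and 4 were negative: the histone demethylase ELF6 (-0.69 ± 0.16), VEL1 of the vernalization pathway (-0.62), CHC1, a SWI/SNF-associated protein (-0.58), and ETL1 (-0.54). The positive share was near the 4.42% over all probe sets, and the negative share lay above the 4.48%. With 1 array left out 1 to 4 of the 25 genes were negative. They numbered 1 without wild-type replicate 2, wild-type replicate 3 or ga1-3 replicate 1, 3 without brm-1 replicate 3, 4 without ga1-3 replicate 3 or brm-1 replicate 2, and 2 without any other array. CHR23, an SNF2-type ATPase, had a term of 0.57 and was not called.

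In the gibberellin pathway 1 positive and 1 negative term were called among 5 genes of GA synthesis and inactivation, with 8.9% called over all probe sets. None of 9 genes of GA perception and signalling (among them the receptors GID1A, GID1B and GID1C and the DELLA genes GAI and RGA1) had a called term, and their values ran from -0.72 to 0.08. Without ga1-3 replicate 3 the terms of 3 of these 9 were called negative. GA3OX1, the enzyme of the last step to bioactive GA, had 7.36, 7.39 and 7.95 in ga1-3/brm-1, 2.81, 2.86 and 2.80 in brm-1, 8.99, 9.09 and 8.56 in ga1-3 and 4.85, 4.85 and 5.10 in the wild type. It was lower in brm-1 and higher in ga1-3 than in the wild type, and the term of 0.80 ± 0.25 missed the threshold (adjusted p = 0.0745) with the brm-1 arrays near background. Other synthesis genes were called in few fits. GA20OX1, which acts one step earlier, had 4.87, 5.07 and 5.29 in ga1-3/brm-1, 2.68, 2.76 and 3.16 in brm-1, 6.89, 6.70 and 5.6 in ga1-3 and 2.66, 2.41 and 2.76 in the wild type (term -1.58 ± 0.41, adjusted p = 0.0393, 1 fit). GA3, the ent-kaurene oxidase, had a term of 0.77 ± 0.18 (5 fits). SCL3, a GRAS protein that counteracts DELLAs, had 7.88, 7.87 and 7.51 in ga1-3/brm-1, 6.52, 6.29 and 6.55 in brm-1, 8.79, 8.95 and 8.64 in ga1-3 and 7.21, 7.36 and 7.40 in the wild type. Its single-mutant changes summed to the double mutant within error (term -0.18 ± 0.18, adjusted p = 0.591).

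The other genes that the study followed had small or negative terms on the log2 scale. EXPA5, an expansin that loosens cell walls, had 4.40, 4.50 and 4.25 in ga1-3/brm-1, 6.01, 5.90 and 5.99 in brm-1, 5.04, 5.28 and 5.41 in ga1-3 and 6.53, 7.27 and 6.96 in the wild type, with a term of 0.09 ± 0.24 (adjusted p = 0.849). The double mutant was lowest, at the level that the 2 falls sum to. That level (4.29) and the double-mutant mean of EXPA5 (4.38) both lay below 4.70, where the array may understate a fall. CYS2, a cystatin, had 9.27, 9.69 and 9.68 in ga1-3/brm-1, 7.70, 7.76 and 7.71 in brm-1, 7.35, 7.50 and 6.52 in ga1-3 and 4.13, 3.41 and 3.52 in the wild type. It was highest in the double mutant yet below the sum (term -1.62 ± 0.36, adjusted p = 0.0245, called in 6 fits), and on unlogged signals its term was positive. LTP2, a lipid-transfer protein (-0.92 ± 0.34, adjusted p = 0.122), and OFP16, an OVATE-family repressor (-0.90 ± 0.28, adjusted p = 0.0742), were not called, and both terms were positive on unlogged signals. Of the auxin genes, none of 20 Aux/IAA and GH3 genes was called, 2 SAUR genes were positive and 2 negative of 20, and 4 of 20 genes of auxin synthesis and transport were positive, against 4.42% positive and 4.48% negative over all probe sets. From 0 to 4 SAUR genes were negative with 1 array left out: 4 without brm-1 replicate 3, 2 without ga1-3 replicate 3, none without brm-1 replicate 1 or 2 or wild-type replicate 2 or 3, and 1 without any other array. The positive genes of auxin synthesis and transport included TAA1, an auxin synthesis enzyme (1.42 ± 0.32), and PIN7, an efflux carrier (1.37 ± 0.26).

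Some ga1-3 responses were modulated rather than switched. AT3G44970, a cytochrome P450 family gene, had 6.35, 6.53 and 6.72 in ga1-3/brm-1, 2.71, 2.70 and 2.68 in brm-1, 8.18, 8.31 and 8.30 in ga1-3 and 2.75, 2.74 and 2.80 in the wild type. It was raised by ga1-3 in both backgrounds and less so without BRM (term -1.67 ± 0.13, adjusted p = 0.000266). AOP3, a glucosinolate side-chain enzyme, had 9.56, 9.45 and 10.32 in ga1-3/brm-1, 2.81, 3.09 and 2.65 in brm-1, 8.36, 8.18 and 7.72 in ga1-3 and 2.63, 2.66 and 2.77 in the wild type. It lies on the same chromosome arm as GA1, and its rise in both ga1-3 lines cannot be told apart from linked donor DNA, while the 2 lines differed from each other (term 1.52 ± 0.33, adjusted p = 0.0211). OASA2, a cysteine synthase-type gene, had 6.18, 6.43 and 6.14 in ga1-3/brm-1, 7.04, 7.09 and 6.78 in brm-1, 7.23, 7.38 and 7.37 in ga1-3 and 6.5, 6.70 and 6.66 in the wild type, so that ga1-3 raised it with BRM and lowered it without (term -1.42 ± 0.16, adjusted p = 0.00213). The other called sulfur genes were positive, 4 of 6 tested (66.7%, against 4.42% over all probe sets), among them APS3, an ATP sulfurylase (1.17 ± 0.25). But without brm-1 replicate 1 none of them was called, and without ga1-3 replicate 1 only 1. Without wild-type replicate 2, wild-type replicate 3, ga1-3 replicate 2 or ga1-3/brm-1 replicate 3 only 2 were called.

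Reversals of this kind were a minority of the calls. The ga1-3 effect was called in opposite directions with and without BRM, beside a called interaction, in 54 probe sets (43 positive and 11 negative), and the brm-1 effect with and without ga1-3 in 33 (25 positive and 8 negative). More often an effect was called in 1 background only. Among called interactions the brm-1 effect was called only in the ga1-3 background in 698 probe sets and only in plants with GA1 intact in 309, and the ga1-3 effect only without BRM in 399 and only with BRM in 393. Over all probe sets brm-1 was called to change 3495 in the ga1-3 background and 2459 with GA1 intact, 1295 of them in both.

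Many calls were lost with 1 array left out, though all 1492 called terms kept their sign in all 12 fits. Each of these fits also leaves 1 genotype with fewer arrays, so a lost call alone does not show that a term rested on that array. Of the 1492 called terms, 620 (41.6%) were called in all 12 fits on 11 arrays, namely 343 of the 741 positive (46.3%) and 277 of the 751 negative (36.9%), and 897 in at least 6. Size mattered: of 638 terms over 1 in size, 355 were called in all 12 fits. By class, 309 of 848 calls with neither single mutant moved, 56 of 168 with only brm-1, 116 of 235 with only ga1-3, 39 of 73 with both higher and 93 of 148 with both lower held in all 12.

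The number of calls ranged from 795 without ga1-3 replicate 1 to 1766 without brm-1 replicate 3. It was also below the full count by over 1.5 times without brm-1 replicate 1 (842), wild-type replicate 3 (844), wild-type replicate 2 (903), ga1-3/brm-1 replicate 1 (911) or ga1-3 replicate 2 (963). Leaving out ga1-3 replicate 3 gave 1732 calls. Of the 1492 calls, 51.4% to 84.9% were called again with the same sign, with the most kept without brm-1 replicate 3, the array that stood apart.

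**Figure D5:**
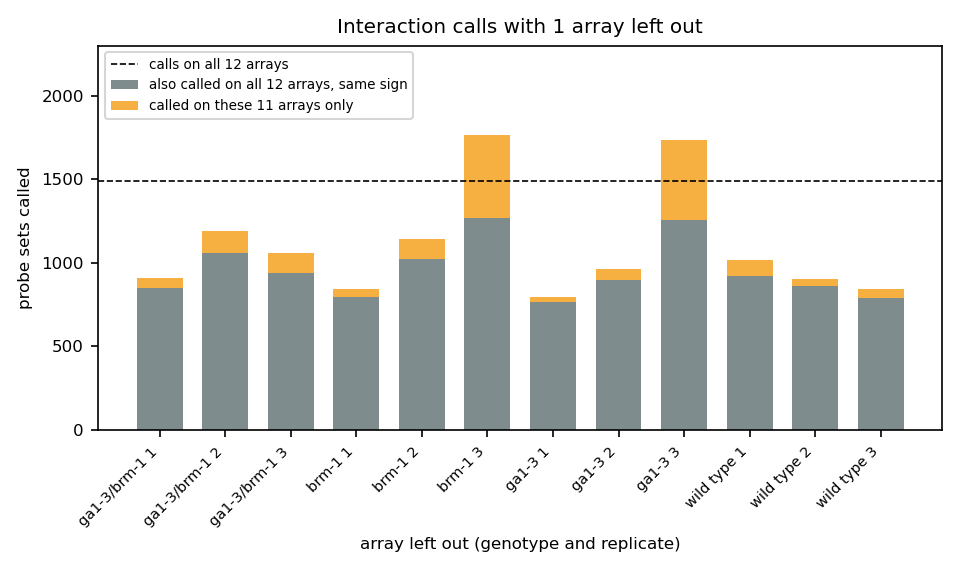
Number of probe sets with a called interaction (y axis) after leaving out the array named on the x axis, with grey for those also called on all 12 arrays with the same sign, orange for those called on the 11 arrays only and a dashed line at 1492. Leaving out brm-1 replicate 3 (1766) or ga1-3 replicate 3 (1732) raised the count, and leaving out any other array lowered it.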

How the data were processed

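The deposited values were log2 signals of ATH1 arrays that the authors normalized by GC-RMA in Partek (both named in the submitters' processing notes, with no version). A detection filter was already applied. Arrays have no read depth, and 3 arrays per genotype limit the precision. Of 16824 probe sets, 60 controls were left out.

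The signals were not normalized again. Genotype was fitted on all 12 arrays with limma 3.58.1 under R 4.3.3 (8 residual degrees of freedom), followed by contrasts, eBayes and Benjamini-Hochberg adjustment. The second factor of the authors' 2-factor model is not given in the sources used here, so genotype alone was fitted. Interaction was called at an adjusted p under 0.05, and a single-mutant change needed a fold over 1.5 as well. A genotype was taken as near background where its mean was below 4.70 (percentile 26 of all signals). The model was tested on simulated data. Python 3.11.15 with matplotlib 3.10.9 drew the figures.

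The platform table named 1 gene for 9267 probe sets and the paper's tables, used for names only, a further 1676. Several genes shared 382, and 5439 stayed unnamed. Probe sets named through the paper are genes it called and had positive terms in 9.43% and negative in 8.59%, against 4.07% and 4.72% for the platform's. With platform names only, the hypoxia list had 10 positive terms of 17 and the nucleolus list 12 of 20. Several other lists took most of their members from the paper's names, so their counts come mostly from genes that the paper called. The platform alone named 3 AP2/ERF members, 1 of them positive. It named 1 ethylene, 4 flowering, 1 evening clock and 2 light signalling members, none of them called. The paper's tables also hold the authors' fold changes and p-values, which were not used.

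Members and lists were chosen with earlier results of these data known. The rapid stress, nucleolus and chitinase lists were chosen after the values were seen. The rule for named genes took the mutated and followed genes, the 8 largest called terms per sign, the 2 largest per sign and class, and the 2 largest called of each list. Other genes with values were chosen after their values were seen: the further hypoxia, stress, nucleolus, chitinase, ethylene, clock, light, flowering, chromatin and plastid genes, ARGOS, ARL, AT1G66100, DOG1, AT1G44970, DIR5, AT4G16260, AOP3, AT3G44970, ALMT12, SDD1, TED6, PAR1 and AT4G29780. Alternatives were each array left out, a replicate block, a 2-level factor, quantile normalization, array medians, an intensity trend, ordinary variance, array weights, dim probe sets dropped, unlogged signals and other thresholds.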

Additional observations from a re-analysis of the deposited data

Results flagged for a closer look

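A called interaction is a test that the effect of brm-1 differs between plants with and without ga1-3. It was met by 741 probe sets with a positive term and 751 with a negative one.

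Some named genes went further, with a single-mutation effect called in opposite directions in the 2 backgrounds. Both effects turned in DIC2 (term 5.81), WRKY53 (3.62) and CYP706A1, a cytochrome P450 gene (1.74). The brm-1 effect turned in AT4G39675 (5.72), ALMT12 (-2.68) and SDD1 (-2.43). The brm-1 and wild-type means of SDD1 were both near background. The ga1-3 effect turned in the VQ-motif gene AT2G22880 (5.63), STZ (5.05), PUB23 (4.45), CML38 (4.36), FLC (4.03), CAF1b (3.85) and PUB22 (3.12). It also turned in MYB51, a regulator of indole glucosinolates (2.20), WDR55 (2.07), FIB2 (2.02), WR3, a wound-responsive gene of nitrate transport (1.62), and OASA2 (-1.42). The causes were not tested.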

How the results depend on the processing

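Counts of calls moved with the setting, and the cause was not tested. With 1 array left out the calls ranged from 795 to 1766, positive calls from 408 to 896 and negative calls from 356 to 972. With neither single mutant moved the range was 214 to 479 positive and 192 to 549 negative, with 1 or both moved it was 194 to 417 positive and 152 to 423 negative, and 45 to 77 of the 87 called genes that the naming rule took were called with the same sign. Replicate numbers did not pair the arrays: deviations of same-numbered arrays correlated between -0.198 and 0.119, and 2 of 12 arrays correlated best with their own number. A replicate block leaves the terms as they are and gave 969 calls, 454 of them negative, with 255 positive and 247 negative where neither single mutant moved. Ordinary variance in place of moderated variance gave 462 positive calls, 193 positive and 170 negative with 1 or both moved, and 49 named genes. Array weights gave 2748 calls (1239 positive, 1509 negative), with 658 and 908 where neither moved and 581 and 601 where 1 or both moved. On unlogged signals 163 negative calls fell where neither moved and 544 where 1 or both moved, and 46 named genes kept their call. An adjusted p under 0.01 left 283 calls (177 positive, 106 negative). With single mutants called at an unadjusted p under 0.05, 202 positive and 101 negative calls had neither moved and 539 and 650 had 1 or both. The 2-level factor (1789), quantile normalization (1557), array medians (1481), the intensity trend (1530) and the dropping of dim probe sets (1463) stayed within 1.5 times of 1492.

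Signs turned on unlogged signals for GA3OX1 (-260 signal units), CYS2 (411), LTP2 (1820), OFP16 (63.4) and FAR1 (-225). The term of EXPA5 with 1 array left out ran from -0.08 (without wild-type replicate 2) to 0.29, with -0.01 without ga1-3 replicate 1.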
